A study of Mus musculus with 6 samples.

Results

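mmu-miR-378a-3p, mmu-miR-378a-5p, mmu-miR-103-3p, mmu-miR-107-3p and mmu-miR-33-5p are mature mouse miRNAs whose hairpins lie inside introns of genes of energy, coenzyme A and sterol metabolism. They were taken by name from the deposited miRNA table, which held all 5 among 1065 names. Their levels were compared between 3 libraries of C2C12 cells given TGF-beta and 3 libraries of control C2C12 cells. C2C12 is a mouse myoblast line that divides as single cells and can be made to fuse into myotubes, which are multinucleate muscle cells. TGF-beta is a cytokine that holds back that fusion and drives fibrosis. The labels name no other agent and give no dose, duration or isoform of TGF-beta. They number the libraries of each group from 1 to 3 but do not tie them to separate cultures, and the p-values therefore reflect the spread between these libraries alone, which may be technical.

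An intronic miRNA is cut from the transcript of its host gene, so host and miRNA can share a promoter. miR-378a sits in Ppargc1b, which encodes the coactivator PGC-1 beta of mitochondrial metabolism, and in mice its 2 arms are known to restrain oxidative metabolism through targets such as Crat and Med13. miR-103 and miR-107 sit in the Pank genes, which encode pantothenate kinases, the enzymes that start coenzyme A synthesis, and in mice they are known to lower insulin sensitivity through Cav1. miR-33 sits in Srebf2, the regulator of sterol synthesis, and represses the cholesterol exporter Abca1. In C2C12 cells miR-378a is also known as a miRNA that rises when myoblasts differentiate and that acts on the differentiation inhibitor MyoR.

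In GENCODE M21, an annotation of GRCm38, each of the 5 hairpins lay on the strand of its host and under no exon of any annotated host transcript. On the longest coding transcript that spans it, the miR-378a hairpin lay in intron 1 of 11 of Ppargc1b, and that of miR-33 in intron 16 of 18 of Srebf2. The miR-103-1, miR-103-2 and miR-107 hairpins lay in intron 5 of 6 of Pank3, Pank2 and Pank1, the same intron position in each gene. miR-103-3p is made from both miR-103 hairpins, so its level cannot be assigned to Pank3 or Pank2.

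The mature sequences of the Pank and Srebf2 miRNAs are shown because the closeness of miR-103-3p and miR-107-3p bears on how far their values can be separated. They are from RefSeq on GRCm38.p6, with the seed, bases 2 to 8, in capitals. The miR-103-3p sequence is at chr11:35782447-35782469 and at chr2:131288103-131288125, both on the plus strand, miR-107-3p is at chr19:34820700-34820722 on the minus strand, and the miR-33 arms are at chr15:82198127-82198147 and chr15:82198167-82198188 on the plus strand.
miR-103-3p: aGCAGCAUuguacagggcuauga
miR-107-3p: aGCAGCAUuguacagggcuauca
miR-33-5p: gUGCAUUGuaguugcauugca
miR-33-3p: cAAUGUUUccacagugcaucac

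miR-103-3p and miR-107-3p shared the seed GCAGCAU and 22 of their 23 bases, and differed by G22C, counted from the 5′ end with the miR-103-3p base first. Of the 865 names of the table whose RefSeq sequences were searched, no other had that seed, and none but miR-33-5p had UGCAUUG. Sequences on the chromosome of the miR-378a hairpin were left out of that search. The treatment of reads that match both miR-103-3p and miR-107-3p is not given in the sources used here, so the split between those names is uncertain.

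The hairpins of the Pank introns are shown to place the shared arm, which stands in capitals, within its precursor.
Mir103-1: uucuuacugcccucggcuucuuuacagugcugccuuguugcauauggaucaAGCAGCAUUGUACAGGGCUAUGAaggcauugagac
Mir103-2: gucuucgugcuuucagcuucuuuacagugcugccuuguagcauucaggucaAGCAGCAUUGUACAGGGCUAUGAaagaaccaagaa
Mir107: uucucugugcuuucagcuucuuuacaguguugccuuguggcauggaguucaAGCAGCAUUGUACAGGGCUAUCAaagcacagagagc

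The 3p arm began at base 52 in all 3 of these hairpins. Aligned over their full lengths, Mir103-1 and Mir103-2 were 80.2% identical, Mir103-1 and Mir107 80.5%, and Mir103-2 and Mir107 83.9%, so the precursors differed outside the mature arm.

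Levels are given in RPM, a name's share of its library's miRNA reads scaled to a total of 1000000. RPM is a share: a lower value can stand for less of that miRNA or for more of the others, and in pooled RNA of many cells fewer expressing cells and less RNA per cell cannot be told apart. The libraries held 9015669 to 9450936 miRNA reads with TGF-beta and 9273231 to 9813063 in control, so that 1 read was worth 0.102 to 0.111 RPM. The most abundant miRNA, miR-21a-5p, took 34.004% to 36.7% of the reads in TGF-beta and 25.8% to 27.9% in control libraries. TGF-beta replicate 3 correlated least with its own group (0.994 on log values, against 0.995 to 0.997 for the other libraries). The defining muscle miRNAs (miR-1a-3p, miR-133a-3p and miR-206-3p) were present and together stood at 100663 to 101662 RPM in TGF-beta and 133620 to 153115 RPM in control libraries. The labels' extraction text speaks of retinas; of 4 names known from retina and nerve miR-124-3p was not listed, and the others summed to 2063 to 2815 RPM in TGF-beta and 2639 to 2881 RPM in control libraries, nearly all of it miR-183-5p. Names known from epithelium summed to 0.846 to 1.55 RPM in TGF-beta and 2.03 to 2.37 RPM in control libraries. Those known from blood summed to 1.48 to 3.44 RPM in TGF-beta and 1.07 to 2.04 RPM in control libraries, so both sets were near 0. The liver miRNA miR-122-5p had 0.998 to 1.48 RPM in TGF-beta and 0.863 to 1.60 RPM in control libraries. The endothelial miRNA miR-126a-3p was higher, at 12.8 to 14.0 RPM in TGF-beta and 12.3 to 24.3 RPM in control libraries.

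The members ran from a miRNA among the most abundant to one with a few reads per library. miR-378a-3p ranked 6 in each of the 6 libraries, and the other 4 members ranked between 36 and 571. Together the members took 3.37%, 3.05% and 3.27% of the miRNA reads in TGF-beta replicates 1 to 3, against 4.14%, 4.19% and 4.35% in control replicates 1 to 3, and nearly all of that was miR-378a-3p. The order of the mean levels was the same in both groups: miR-378a-3p, miR-103-3p, miR-107-3p, miR-378a-5p, miR-33-5p. The ranges of the neighbours miR-107-3p and miR-378a-5p overlapped across TGF-beta libraries, where miR-107-3p spanned 69.8 to 122.7 RPM and miR-378a-5p 54.5 to 79.4 RPM. In control they were apart, at 101.4 to 107.7 RPM and 76.6 to 80.8 RPM. Within each of the 6 libraries miR-107-3p stood above miR-378a-5p.

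**Figure D1:**
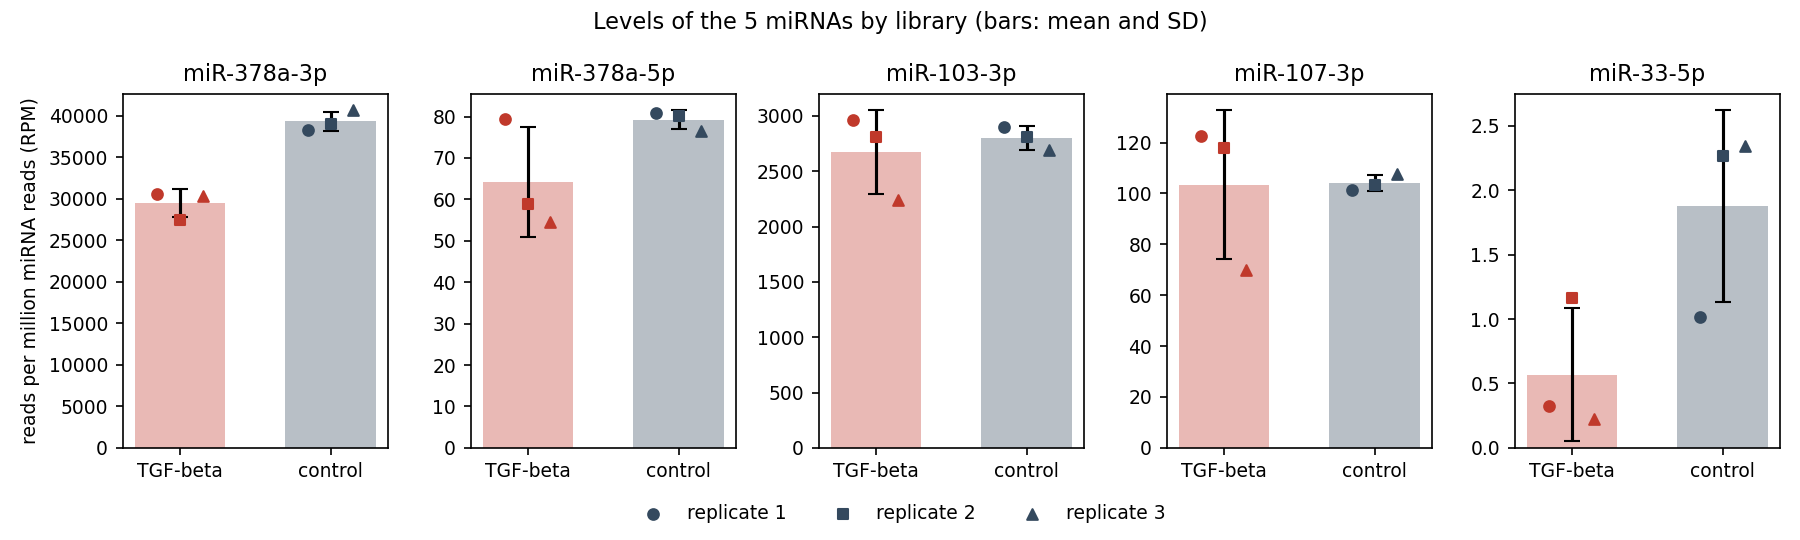
RPM of the 5 miRNAs in each library, with TGF-beta on the left and control on the right of each panel; bars give the mean, error bars the SD of 3 libraries, and marker shapes the replicate number. The miR-378a-3p libraries lie at 27493 to 30525 RPM with TGF-beta, all below the control libraries at 38329 to 40643.5 RPM, while the groups overlap in the other 4 panels.

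Whether the members differed with TGF-beta was tested with limma on log2(RPM + 1) over the 418 names that reached 1 RPM in 3 or more libraries. The test was two-sided, and names were called at 0.05 after Benjamini-Hochberg adjustment. All 5 members were tested. miR-378a-3p passed, so 1 of 5 members was called, where 7.89% of all 418 names were called and 3.83% were called as lower. It was also the only member whose groups did not overlap, which was so for 21.3% of all tested names. The 5 log2 fold changes ran from −0.89 to −0.05, beside a median of −0.05 over all tested names, and those of miR-103-3p and miR-107-3p changed sign with the setting. The members were chosen with earlier results of these data known, and these counts are a description.

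**Figure D2:**
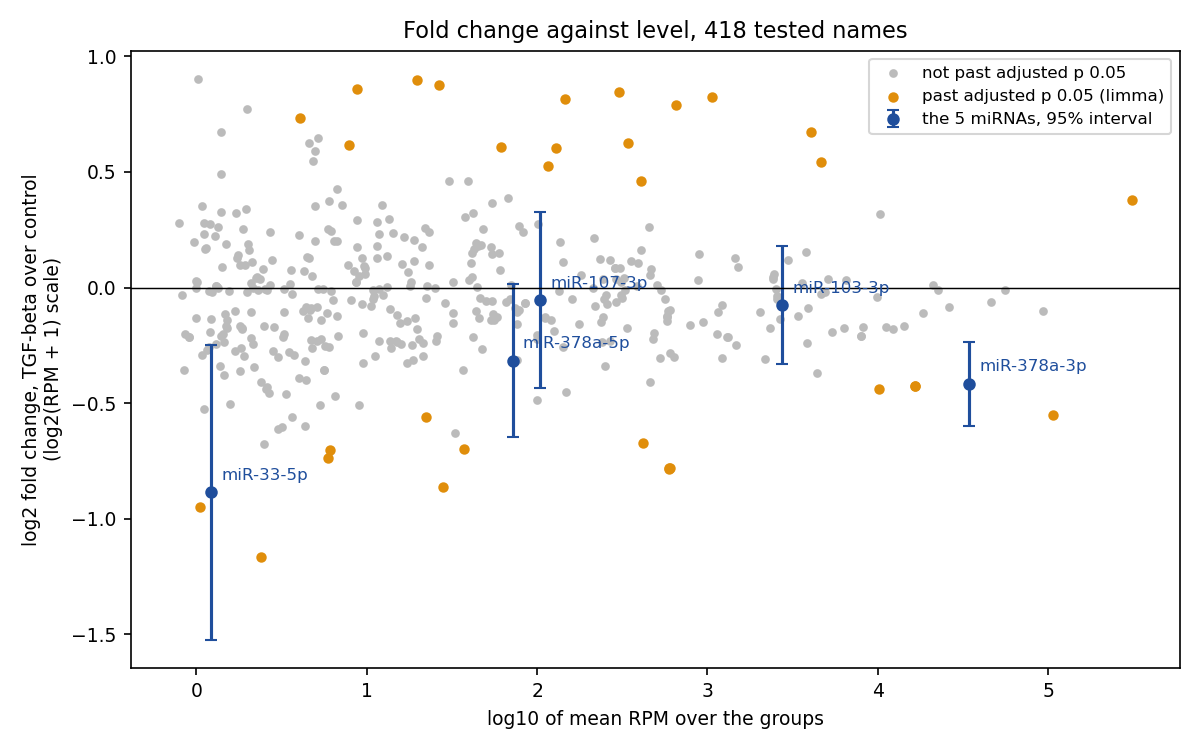
Log2 fold change of TGF-beta over control against the log10 of the mean RPM, for 418 tested names; orange points are past adjusted p 0.05 in limma, and blue points are the 5 miRNAs with 95% intervals. miR-378a-3p, at −0.42, is among the most abundant names that were called, and miR-33-5p, at −0.89, has the widest interval of the 5, −1.52 to −0.25.

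miR-378a-3p, the dominant arm of the Ppargc1b hairpin, had 30525, 27493 and 30371 RPM in TGF-beta replicates 1 to 3, against 38329, 38948.5 and 40643.5 RPM in control replicates 1 to 3. Every treated library lay below every control library, and TGF-beta replicate 2 was the lowest. It averaged 29463 ± 1708 RPM with TGF-beta and 39307 ± 1198 RPM in control (SD, n = 3 each), or 2.95% ± 0.17 and 3.93% ± 0.12 of the miRNA reads. The log2 fold change was −0.42 (SE 0.09, 95% interval −0.60 to −0.23, limma with Benjamini-Hochberg, adjusted p = 0.00402), a level 0.749 times that of control. The authors' deposited table gives it an unadjusted p of 0.00122. With single libraries left out the change ran from −0.37 to −0.44 and stayed past the threshold, with limma adjusted p between 0.00325 and 0.0465.

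The call for miR-378a-3p depended on the scaling. When the reads other than those of miR-21a-5p were rescaled to 1000000, the median of all names moved up by 0.16, to 0.11, and miR-378a-3p was at −0.25 (SE 0.09, limma adjusted p = 0.118), where 7.67% of 417 names were called. edgeR (quasi-likelihood, TMM scaling), run on read numbers, called it at −0.34 (edgeR adjusted p = 0.0266), where 6.94% of names were called. Median scaling gave −0.35 (limma adjusted p = 0.0406, 30 of 418 names called) and DESeq2 −0.36 (DESeq2 adjusted p = 0.0412, 31 of 418). Both kept the call. Without an intensity trend the limma call ended (adjusted p = 0.125), and with quantile normalization the change of miR-378a-3p was 0. As deposited, miR-378a-3p was at −0.42 beside a median of −0.05 over all names, and rescaled at −0.25 beside 0.11. Between the groups, the share of miR-378a-3p was lower and that of miR-21a-5p higher with TGF-beta. Within the groups the libraries did not all follow that order. The part of the higher miR-21a-5p share in the lower miR-378a-3p share was not tested beyond these scalings. The 3 muscle miRNAs also had lower means, and 2 of 3 passed, where 3.83% of all 418 names were called as lower. These were miR-206-3p at −0.55 (limma adjusted p = 0.000479) and miR-1a-3p at −0.43 (limma adjusted p = 0.0363). miR-133a-3p, at −0.30, did not pass (limma adjusted p = 0.427), and its groups overlapped. The part of the muscle miRNAs in the result was not tested.

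miR-378a-5p, the rarer arm of the same hairpin, had 79.4, 58.9 and 54.5 RPM in TGF-beta replicates 1 to 3, against 80.8, 80.2 and 76.6 RPM in control replicates 1 to 3. TGF-beta replicates 2 and 3 lay below all control libraries, and TGF-beta replicate 1 lay within the control range. The means were 64.3 ± 13.3 RPM with TGF-beta and 79.2 ± 2.29 RPM in control (SD, n = 3 each), and the log2 fold change was −0.32 (SE 0.16, 95% interval −0.65 to 0.01, limma adjusted p = 0.346). Leaving out TGF-beta replicate 1 gave −0.48 (limma adjusted p = 0.0855), and leaving out TGF-beta replicate 3 gave −0.21. The authors' deposited table gives it an unadjusted p of 0.127.

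Whether the arms of the miR-378a hairpin moved apart was tested on the 5p:3p log2 ratio, in 1 limma fit over 109 hairpins with both arms at 1 RPM or more in at least 3 libraries. The 5p arm held 0.259%, 0.214% and 0.179% of the hairpin's reads in TGF-beta replicates 1 to 3, against 0.210%, 0.206% and 0.188% in control replicates 1 to 3. The groups overlapped, and treated libraries held both the highest and the lowest value. The log2 ratio was −8.84 ± 0.26 with TGF-beta and −8.94 ± 0.08 in control (SD, n = 3 each), a difference of 0.10 (SE 0.17, 95% interval −0.31 to 0.51, limma adjusted p = 0.869). Of all 109 hairpins 0 were called by limma, or 0%, and 10 had an unadjusted p under 0.05; no other tool was run on the arms.

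The other miR-378 names of the table come from other hairpins and were listed as miR-378b, miR-378c and miR-378d. Close family members can share reads, so their values are uncertain. miR-378c had 1401, 930 and 853 RPM in TGF-beta replicates 1 to 3, against 955, 1302 and 1356 RPM in control replicates 1 to 3. Its highest value was in TGF-beta replicate 1 and the groups overlapped, and the log2 change was −0.20 (SE 0.17; adjusted p = 0.651, limma). miR-378b, at a far lower level, had 22.9, 13.9 and 12.98 RPM with TGF-beta, against 14.5, 24.4 and 23.3 RPM in control. It was high and low in the same libraries as miR-378c, and its log2 change was −0.31 (SE 0.22; adjusted p = 0.553, limma). The name miR-378d had at most 5 reads in any library and was not tested.

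The pattern of miR-378b and miR-378c over libraries was not that of miR-378a-3p. The reads of miR-378c were 4.59%, 3.38% and 2.81% of those of miR-378a-3p in TGF-beta replicates 1 to 3, against 2.49%, 3.34% and 3.34% in control replicates 1 to 3. That share was lowest in control replicate 1 and highest in TGF-beta replicate 1, while the ratio of miR-378c to miR-378b kept between 53.4 and 67.1 in all libraries. All miR-378 names summed to 32029, 28496 and 31291 RPM with TGF-beta, against 39379, 40356 and 42099.5 RPM in control, so the sum was lower in every treated library than in any control library. Most of that sum was miR-378a-3p, so its order repeats that of miR-378a-3p and is no separate result for miR-378b or miR-378c.

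**Figure D3:**
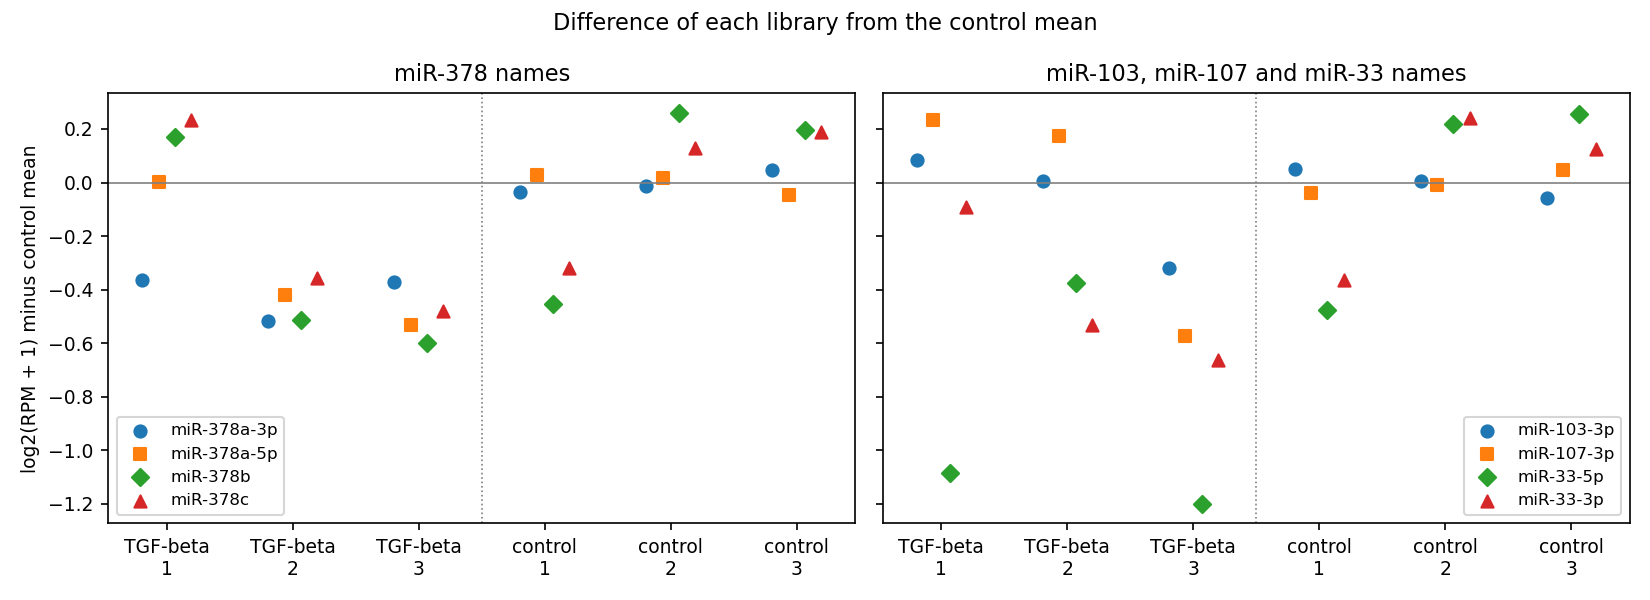
Log2(RPM + 1) of each library minus the control mean of that name, with TGF-beta libraries left of the dotted line and control libraries right of it. miR-378a-3p lies 0.36 to 0.52 below the control mean in all 3 treated libraries, miR-378b and miR-378c lie above it in TGF-beta replicate 1 and below it in control replicate 1, and miR-103-3p and miR-107-3p lie below it by more than 0.3 in TGF-beta replicate 3 alone.

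miR-103-3p, the abundant miRNA of the Pank introns, had 2963, 2807 and 2243 RPM in TGF-beta replicates 1 to 3, against 2901, 2811 and 2687.5 RPM in control replicates 1 to 3. TGF-beta replicate 1 was the highest and TGF-beta replicate 3 the lowest of all libraries. It averaged 2671 ± 379 RPM with TGF-beta and 2800 ± 107.3 RPM in control (SD, n = 3 each), and the log2 fold change was −0.08 (SE 0.12, 95% interval −0.33 to 0.18, limma adjusted p = 0.820). The interval spans levels from 0.794 to 1.13 times that of control. No direction is given, because the sign turned without TGF-beta replicate 3 (0.04, limma adjusted p = 0.801). With miR-21a-5p left out of the scaling it was 0.09 (limma adjusted p = 0.782), beside the shifted median of 0.11 over all names, so it lay close to the median under both scalings.

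miR-107-3p, from the Pank1 intron, had 122.7, 117.8 and 69.8 RPM in TGF-beta replicates 1 to 3, against 101.4, 103.5 and 107.7 RPM in control replicates 1 to 3. TGF-beta replicates 1 and 2 lay above all control libraries and TGF-beta replicate 3 below them, so that the spread was 28.3% of the mean with TGF-beta and 3.10% in control. Its mean was 103.4 ± 29.3 RPM with TGF-beta and 104.2 ± 3.23 RPM in control (SD, n = 3 each), and the log2 fold change was −0.05 (SE 0.18, 95% interval −0.44 to 0.33, limma adjusted p = 0.923). Without TGF-beta replicate 3 it was 0.20 (limma adjusted p = 0.207), and the sign also turned with median scaling (0.01), with edgeR (0.05) and with DESeq2 (0.04). With miR-21a-5p left out of the scaling it was 0.11 (limma adjusted p = 0.808), beside the same shifted median of 0.11. In the authors' deposited table miR-103-3p has an unadjusted p of 0.602 and miR-107-3p of 0.965.

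The ratio of miR-103-3p to miR-107-3p within a library does not depend on the scaling, though it does depend on how reads were split between these near-identical names. It was 24.1, 23.8 and 32.2 in TGF-beta replicates 1 to 3, against 28.6, 27.2 and 24.9 in control replicates 1 to 3. The log2 ratios differed by −0.02 (two-sided exact permutation p = 0.8, where 0.1 is the smallest that 3 against 3 libraries allow). Summed, which removes the question of the split, both names came to 3086, 2925 and 2313 RPM with TGF-beta, against 3003, 2914 and 2795 RPM in control, and the groups overlapped.

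Whether miR-378a-3p moved apart from miR-103-3p was compared in the same way. The ratio of their RPM was 10.3, 9.79 and 13.5 in TGF-beta replicates 1 to 3, against 13.2, 13.9 and 15.1 in control replicates 1 to 3. TGF-beta replicates 1 and 2 lay below all control libraries, and TGF-beta replicate 3 lay above control replicate 1. The log2 ratio was 3.47 ± 0.25 with TGF-beta and 3.81 ± 0.10 in control (SD, n = 3 each), a difference of −0.34 (two-sided exact permutation p = 0.2). As no p under 0.1 can be had from 3 against 3 libraries, this test could not have called a difference between miR-378a-3p and miR-103-3p.

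miR-33-5p, the arm of the Srebf2 hairpin that represses Abca1, was near the limit of detection. It had 0.322, 1.16 and 0.222 RPM in TGF-beta replicates 1 to 3, against 1.02, 2.26 and 2.35 RPM in control replicates 1 to 3, which stand for 3, 11 and 2 reads against 10, 21 and 22 reads. TGF-beta replicates 1 and 3 were the lowest of all libraries, but TGF-beta replicate 2 lay above control replicate 1, so the groups overlapped. Summed over libraries there were 16 reads with TGF-beta (95% exact Poisson interval 9.15 to 25.98) and 53 in control (39.7 to 69.3), and these intervals cover counting error only. The pseudocount of 1 RPM shrinks the change of a name this low; on that scale the log2 fold change was −0.89 (SE 0.30, 95% interval −1.52 to −0.25, limma adjusted p = 0.0909). edgeR on the reads put it at −1.62 (edgeR adjusted p = 0.118), so neither test called it. The name reached 1 RPM in all 3 control libraries and in 1 treated library, so it passed the filter mainly through the control group. The authors' deposited table gives an unadjusted p of 0.0668.

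miR-33-3p, the other arm of the hairpin, had 2.79, 1.80 and 1.55 RPM in TGF-beta replicates 1 to 3, against 2.14, 3.77 and 3.41 RPM in control replicates 1 to 3. The groups overlapped, and control replicate 1 was the lowest control library for both arms. Its log2 change was −0.43 (SE 0.24; adjusted p = 0.411, limma). At these levels the 3p arm had more reads than the 5p arm in each of the 6 libraries.

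Of the 5p arms of the Pank hairpins, miR-103-2-5p had a value. It had 1 read, in TGF-beta replicate 1, and 0 reads in the control libraries, where a count of 0 allows up to 3 reads per library. miR-103-1-5p and miR-107-5p were not among the 1065 names.

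**Figure D4:**
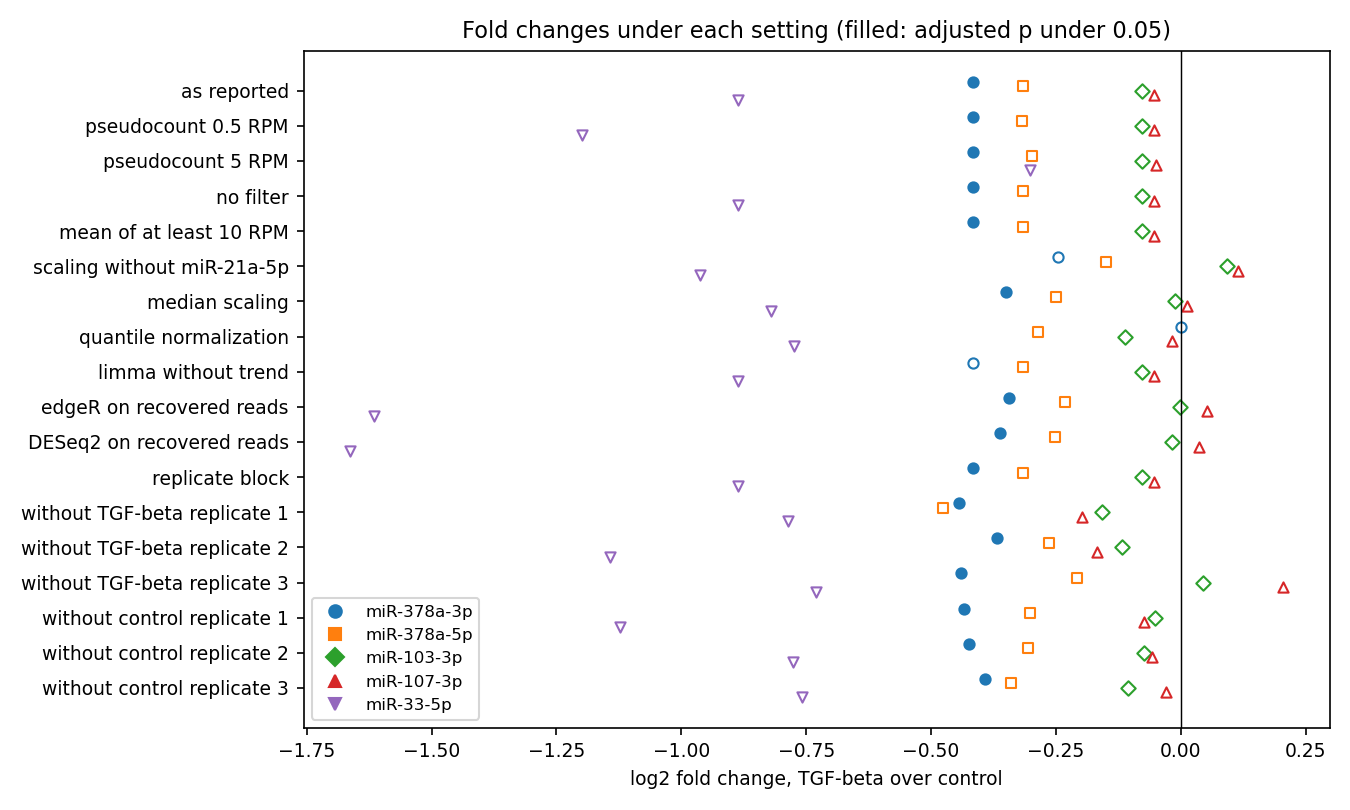
Log2 fold change of TGF-beta over control (horizontal axis) for the 5 miRNAs under each processing setting (rows); filled markers have an adjusted p under 0.05. miR-378a-3p is filled in every row but the scaling without miR-21a-5p (−0.25), quantile normalization (0) and limma without trend (−0.42), and no other miRNA is filled in any row.

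The names whose pattern over the 6 libraries was most like each member were taken from the 240 other names that averaged 10 RPM or more, by the root mean square difference of centred log2 values. The difference between the groups is part of that pattern. Fold changes close to that of the member therefore follow from the choice, here and in the next paragraph, and are a description. For miR-378a-3p they were miR-125b-2-3p (0.07), miR-532-5p (0.08) and miR-206-3p (0.10), against a median of 0.25 over all 240. miR-532-5p, from an intron of Clcn5, fell by 0.44 on the log2 scale (limma adjusted p = 0.00821), and miR-206-3p, a skeletal muscle miRNA that promotes differentiation, fell by 0.55 (limma adjusted p = 0.000479). miR-125b-2-3p was at −0.31 and did not pass (limma adjusted p = 0.252).

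For miR-378a-5p the nearest names were miR-140-3p, miR-500-3p and miR-499-5p, each at 0.12, none of which passed. For miR-103-3p they were miR-185-5p (0.03), miR-350-3p (0.04) and miR-34a-5p (0.05), and for miR-107-3p they were miR-210-3p (0.05), miR-106b-5p (0.05) and miR-30b-5p (0.08). All 6 had log2 fold changes between −0.07 and 0.01, and none passed. Neither arm of the miR-378a hairpin was among the 3 names nearest to the other, and likewise for miR-103-3p and miR-107-3p.

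Other miRNAs with related sequence or roles were read from lists, each beside the median of −0.05 over all 418 names and the shares of them that were called, 7.89% in either direction and 3.83% as lower. With so few names to a list, these counts are a description and set no list apart. Of the miR-15 group, in which the first 6 bases of miR-103-3p, AGCAGC, start at base 2, 0 of 7 tested names rose and 1 fell, with a median of −0.19. The one that fell was miR-503-5p, which in myoblasts is known to act against the cell cycle phosphatase Cdc25A, at 28.3 ± 6.70 RPM with TGF-beta and 45.8 ± 3.36 RPM in control (SD, n = 3 each), by 0.70 on the log2 scale (limma adjusted p = 0.0152). Its abundant members miR-16-5p, at −0.01, and miR-322-5p, at −0.19, did not pass.

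Of miRNAs known from lipid and cholesterol metabolism, 0 of 9 tested names passed in either direction, with a median of −0.07. The most abundant were miR-27b-3p at −0.10 and miR-26a-5p at −0.18. Of miRNAs known from insulin and glucose metabolism, 1 of 7 rose and 0 fell, with a median of −0.04. The riser was miR-7a-5p, which in mice acts on insulin secretion, at 5507 ± 798 RPM with TGF-beta and 3807 ± 743 RPM in control (SD, n = 3 each), higher by 0.54 on the log2 scale (limma adjusted p = 0.0230). miR-143-3p, at −0.01, and let-7a-5p, at −0.04, did not pass.

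Of 24 other tested arms from introns of protein-coding genes, not all of them the more abundant arm here, 1 rose and 3 fell, with a median of −0.08. The falls were those of miR-486a-5p from Ank1, by 0.78 on the log2 scale (limma adjusted p = 0.000538), miR-218-5p from the Slit genes, by 0.67 (limma adjusted p = 0.00561), and miR-532-5p, given above. miR-486a-5p had 439 RPM with TGF-beta and 757 RPM in control, and miR-486a-3p had nearly the same, 443 and 761 RPM. The fall of miR-486a-5p therefore cannot be assigned to that arm. miR-582-3p from Pde4d rose by 0.82 (limma adjusted p = 0.00177). The host transcripts themselves were not measured in these libraries.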

How the data were processed

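The deposited table holds 6 C2C12 small RNA libraries and 1065 miRNA names, 1028 known and 37 predicted. Its values are headed TPM per the file headers, but the deposited columns sum to 1000000 and hold no length correction, so they are RPM. The authors' group means in RPM and their unadjusted p-value per name were also deposited. Per the submitters' processing notes, the genome was mm9. No source used here names the aligner or counter, or says how reads matching several names were treated. Whole reads were recovered from the step of each library (100% of values within 0.01 read).

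Values were fitted with limma 3.58.1 (R 4.3.3, intensity trend) on log2(RPM + 1), over 418 names; 647 names under the filter were left out. edgeR 4.0.16 and DESeq2 1.42.0 on recovered reads were alternatives. Arm ratios were fitted with limma without trend, ratios between names with a two-sided exact permutation test. The fits were tested on simulated data. There the main fit called 83.5% of 2-fold and 49.9% of 1.5-fold changes, and 6.64% of its calls were false. A change of that smaller size can therefore be missed. Replicate pairs differed by 75.1 to 324 in chi-square per degree of freedom, so none was a copy. Sequences are from RefSeq and host genes from GENCODE M21, both on GRCm38, matched by name, not by mm9 coordinates. The members and lists were chosen with earlier results of these data known. Named are all members, their kin, the 3 names most like each member with at least 10 RPM, and from each list the names past the threshold and the 2 most abundant.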

Additional observations from a re-analysis of the deposited data

How the results depend on the processing

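The count of 33 called names was 19 without a filter, 19 with a mean of at least 10 RPM, 16 without an intensity trend and 10 with quantile normalization, and with single libraries left out its lowest value was 17 (TGF-beta replicate 2 left out) and its highest 36 (TGF-beta replicate 3 left out), with 18 when control replicate 1 was left out. The split of 17 higher and 16 lower names was 25 and 7 with miR-21a-5p left out of the scaling, 20 and 10 with median scaling, 19 and 10 with edgeR and 20 and 11 with DESeq2. The call of miR-378a-3p ended with miR-21a-5p left out (−0.2466), without a trend (−0.4171) and with quantile normalization, where its value is 0 because it holds the same rank in all libraries; it held in the other 14 alternatives. miR-103-3p was at 0.09313 with miR-21a-5p left out and ran from −0.1572 to 0.04347 with single libraries left out. miR-107-3p was at 0.1149 with miR-21a-5p left out, 0.01202 with median scaling, 0.05193 with edgeR and 0.03573 with DESeq2, and ran from −0.1983 to 0.2047. The arm ratio of miR-378a ran from −0.03251 to 0.2313, and the log2 ratio of miR-103-3p to miR-107-3p from −0.1613 to 0.0505. Leaving out miR-21a-5p moved the median of all names by 0.16; the cause of the other turns was not tested. miR-378a-5p and miR-33-5p kept their sign and stayed short of the threshold in all alternatives run, though their size moved: miR-378a-5p was at −0.15 with miR-21a-5p left out, and miR-33-5p at −0.30 with a pseudocount of 5 RPM, −1.62 with edgeR and −1.66 with DESeq2; miR-33-5p was not tested with a mean of at least 10 RPM. With the replicate number as a block, 32 names were called and miR-378a-3p kept its call (limma adjusted p = 0.0133). Same-numbered libraries did not deviate together (correlations of −0.084 to −0.068), so no shared effect of the number was seen. That cannot show whether they were handled as pairs, which the labels do not state. Depth limits miR-33-5p, with at most 22 reads per library.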
